A study of Mus musculus with 4 samples.

Results

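The transcription factors and membrane proteins that commit a mesenchymal cell to skeletal muscle and fuse it into myotubes were followed here gene by gene: Myod1, Myf5, Myf6, Myog, Mef2c, Pax7, Mymk, Mymx and Cdh15. These 9 genes were listed by name from the 32285 genes of the count matrices, and all 9 were found there. They were read in 22049 cells out of 39891 deposited barcodes, keeping barcodes with at least 5000 UMIs (unique molecular identifiers, each standing for 1 captured RNA molecule), at least 1500 genes and at most 20% mitochondrial UMIs. The cells were C3H10T1/2 (Clone 8) mouse mesenchymal progenitors, selected with puromycin after lentiviral transduction with a histone H3.1 transgene, which was either wild type (H3WT) or carried the cancer-associated arginine-to-cysteine change H3R26C. The endogenous H3 genes stayed in place in both lines, so the transgene added to the normal H3 pool. Each line was profiled after vehicle (DMSO) and after 5-Azacitidine (5-Aza), an inhibitor of DNA methyltransferases given at 3 µM for 24 h with collection on day 28, and the day of collection of the DMSO cells is not given in the sources used here, so treatment and time in culture cannot be told apart. The suspensions went through a 70 µm strainer before loading on the 10X Genomics platform, so the libraries hold what passed it.

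Each of the 4 conditions was 1 library, so no condition had a replicate and no test between conditions was possible. The filter kept 3710 of 6239 barcodes for H3WT DMSO, 4727 of 6540 for H3R26C DMSO, 5993 of 15002 for H3WT 5-Aza and 7619 of 12110 for H3R26C 5-Aza, and their UMIs summed to between 84060490 and 110712425 a library. Median depth was 22420 and 16598 UMIs a cell in the DMSO libraries of H3WT and H3R26C, against 13149 and 13123 after 5-Aza. Levels are given in CPM, the UMIs of a gene per 1000000 UMIs of all kept cells, with an exact Poisson 95% interval, and ratios of levels with an exact conditional binomial 95% interval. Shares of cells were counted on cells drawn down to 5000 UMIs each without replacement (thinned cells), with an exact binomial 95% interval. All intervals cover counting error only, and since UMIs of 1 cell are not independent, a library-to-library difference larger than its interval may still be no larger than the spread between cultures, which was not measured. A count of 0 allows up to 3 UMIs, which is 0.0271 to 0.0357 CPM depending on the library.

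As background, Myod1 and Myf5 are basic helix-loop-helix factors that set the myogenic fate, and Myod1 was first isolated from C3H10T1/2 derivatives converted to muscle by 5-Azacitidine. Myog acts after them, driving withdrawal from the cycle into differentiation together with MEF2 factors such as Mef2c, and Myf6 (MRF4) is expressed late in fibre maturation. Pax7 marks satellite cells, the stem cells of adult muscle. Myoblasts adhere through M-cadherin, encoded by Cdh15, and fuse through a pair of membrane proteins, Myomaker (Mymk) and the micropeptide Myomixer (Mymx).

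The genes lie apart from each other in the genome, except for Myf5 and Myf6. In GENCODE M21 (GRCm38, the build of the authors' mm10 reference) Myod1 lies on chr7:46376474-46379099, Myog on chr1:134289989-134292548, Mef2c on chr13:83504034-83667080, Pax7 on chr4:139737062-139833528, Mymk on chr2:27061636-27072179, Mymx on chr17:45600971-45602102 and Cdh15 on chr8:122847966-122867397. Myf5 (chr10:107482908-107486134) and Myf6 (chr10:107492853-107494737) are neighbours on the minus strand with 6718 bases between them. Cdh15 is overlapped on its own strand by the locus Gm20388, which is no row of the matrices. The other 8 genes overlap no annotated gene. RefSeq places the starts of Myog, Cdh15 and Pax7 further into the gene than GENCODE does, so those promoter windows lie partly or wholly inside the spans above.

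Promoter sequence from RefSeq (GRCm38.p6) was matched for 5 of the 9 genes, Mef2c among them with 3 annotated starts. The 250 bases before the annotated start are shown for Myog (chr1:134289754-134290003, plus strand) and Cdh15 (chr8:122848124-122848373, plus strand), whose RNA was found after 5-Aza, and for Myf5 (chr10:107486135-107486384, minus strand) and Pax7 (chr4:139832969-139833218, minus strand), whose RNA stayed at or near 0. Each is written 5′ to 3′ on the strand of the gene. Capitals mark matches on either strand to an E-box (CANNTG), a loose MEF2-type motif (CTANNNNTA) and a MEF3 motif (TCAGGTT). The E-box is a general site of basic helix-loop-helix factors, Myod1 and Myog dimers among them.
Myog: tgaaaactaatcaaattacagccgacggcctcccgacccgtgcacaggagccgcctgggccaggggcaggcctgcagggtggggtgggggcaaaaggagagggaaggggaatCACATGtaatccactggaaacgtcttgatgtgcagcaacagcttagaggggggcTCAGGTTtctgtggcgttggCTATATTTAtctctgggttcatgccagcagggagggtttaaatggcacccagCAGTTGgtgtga
Cdh15: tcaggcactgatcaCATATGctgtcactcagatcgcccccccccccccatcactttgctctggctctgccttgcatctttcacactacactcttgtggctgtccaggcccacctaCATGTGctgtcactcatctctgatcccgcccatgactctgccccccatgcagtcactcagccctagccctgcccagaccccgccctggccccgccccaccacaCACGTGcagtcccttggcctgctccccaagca
Myf5: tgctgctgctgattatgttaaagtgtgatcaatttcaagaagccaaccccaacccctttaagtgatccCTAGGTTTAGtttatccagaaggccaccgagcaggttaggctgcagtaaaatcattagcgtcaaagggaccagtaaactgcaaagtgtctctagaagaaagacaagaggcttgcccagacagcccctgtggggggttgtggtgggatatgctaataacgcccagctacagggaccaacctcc
Pax7: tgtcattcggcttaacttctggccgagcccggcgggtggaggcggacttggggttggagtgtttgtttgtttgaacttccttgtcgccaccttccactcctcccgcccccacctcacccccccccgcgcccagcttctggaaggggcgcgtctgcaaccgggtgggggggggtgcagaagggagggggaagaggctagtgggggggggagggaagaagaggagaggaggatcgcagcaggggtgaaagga
The Myog promoter held 2 E-boxes, ending 132 and 6 bases before the start, with 1 MEF2-type match 55 bases and 1 MEF3 match 77 bases before it. Cdh15 had 3 E-boxes and no match to the other motifs, Myf5 had 2 MEF2-type matches that overlap each other, and Pax7 had none of the motifs. Among all 32851 RefSeq promoter windows of this length, 66.2% held an E-box, 19% a MEF2-type match and 3.49% a MEF3 match, so the E-box alone is common. CAGCTG, a form of the E-box, was in 13% of all windows and in none of the promoters shown. The CG dinucleotides, the letters that DNA methyltransferases act on, numbered 7 in Myog, 5 in Cdh15, 3 in Myf5 and 13 in Pax7, beside a median of 6 over all windows. Methylation is not measured by these libraries.

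The first question was whether 5-Aza turned the genes on. With DMSO, Myod1 had 1 UMI in H3WT and 0 in H3R26C, and after 5-Aza it had 1627 UMIs (19.3 CPM, interval 18.4 to 20.3) in H3WT and 3432 UMIs (31.0 CPM, interval 30.0 to 32.1) in H3R26C. Myog likewise had 1 and 0 UMIs with DMSO, against 5291 (62.7 CPM, interval 61.1 to 64.4) and 10778 (97.4 CPM, interval 95.5 to 99.2) after 5-Aza. Both factors were thus near 0 with DMSO in both lines and present after 5-Aza in both. In H3R26C, where DMSO had no UMI, the level after 5-Aza was at least 706-fold higher for Myod1 and at least 2218-fold higher for Myog (lower limits of the 95% intervals). The fusion genes followed the same pattern. Mymk had 1 UMI in each DMSO library and 3246 (38.5 CPM, interval 37.2 to 39.8) and 4920 UMIs (44.4 CPM, interval 43.2 to 45.7) after 5-Aza in H3WT and H3R26C. Mymx started from 9 and 8 UMIs with DMSO (0.104 and 0.0952 CPM) and reached 1195 (14.2 CPM, interval 13.4 to 15.0) and 5378 UMIs (48.6 CPM, interval 47.3 to 49.9) after 5-Aza. Cdh15 had no UMI with DMSO and 370 (4.39 CPM, interval 3.95 to 4.86) and 1325 UMIs (11.97 CPM, interval 11.3 to 12.6) after 5-Aza, higher by lower interval limits of 102.8-fold and 272-fold.

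**Figure D1:**
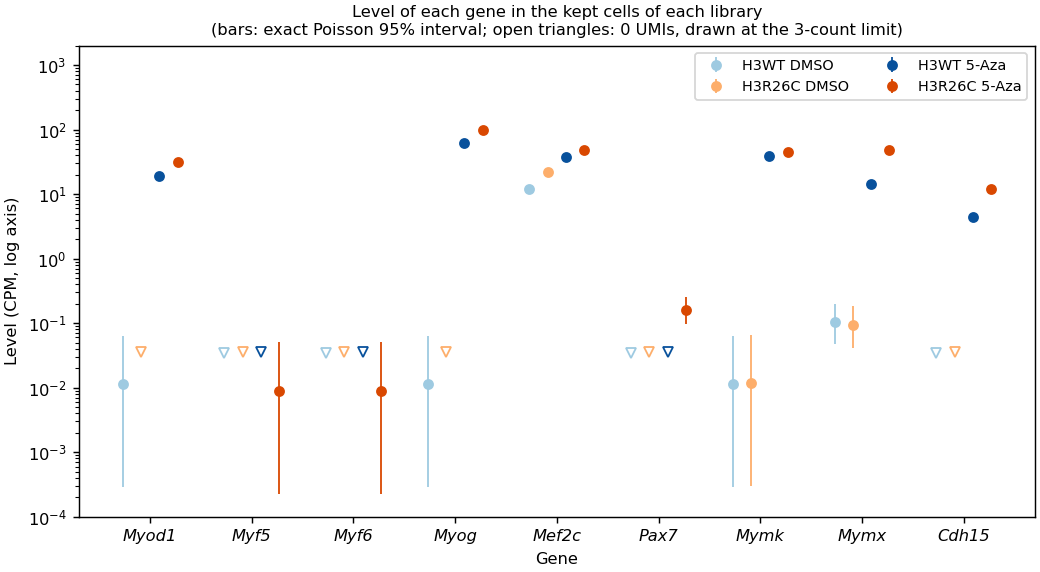
Level of each of the 9 genes (CPM, log axis) in the kept cells of the 4 libraries, with exact Poisson 95% intervals and open triangles at the 3-count limit for genes with 0 UMIs. The 5-Aza libraries stand above the DMSO libraries for Myod1, Myog, Mymk, Mymx and Cdh15, Mef2c is present in all 4 libraries, and Myf5, Myf6 and Pax7 stay below 1 CPM in each.

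Mef2c, the MADS-box partner of the bHLH factors, was the exception, being present without 5-Aza. It stood at 11.9 CPM (interval 11.2 to 12.7) in H3WT DMSO, 22.3 CPM (interval 21.3 to 23.3) in H3R26C DMSO, 37.9 CPM (interval 36.6 to 39.3) in H3WT 5-Aza and 48.8 CPM (interval 47.5 to 50.1) in H3R26C 5-Aza. H3R26C was thus above H3WT in either treatment, by 1.87-fold (interval 1.73 to 2.01) with DMSO and 1.29-fold (interval 1.23 to 1.34) after 5-Aza, and 5-Aza was above DMSO in either line, by 3.18-fold (interval 2.96 to 3.41) in H3WT and 2.19-fold (interval 2.08 to 2.31) in H3R26C. Most Mef2c UMIs after 5-Aza came from cells without Myog, which were most of the cells. Cells with no Myog UMI after thinning numbered 5699 of 5993 in H3WT and 7008 of 7619 in H3R26C. They held 71.2% of the Mef2c UMIs of H3WT and 70.1% of those of H3R26C, at 28.5 and 37.7 CPM. In cells with Myog the level was higher, at 203 and 157 CPM. Markers of endothelial and blood cells, in which Mef2c is also known to be expressed, were read over the 4 libraries. The 5 endothelial markers summed to 4.69 to 8.24 CPM, with 3 or 4 of them under 1 CPM and Tie1 at 0 in both DMSO libraries. The 5 blood markers summed to 5.06 to 14.2 CPM, with 2 or 3 of them under 1 CPM. Ptprc was at 0 in both DMSO libraries and Hbb-bs in every library except H3R26C 5-Aza. In cells with Mef2c and no Myog, 5 chondrocyte markers summed to 216 to 394 CPM (208.5 to 419 CPM over all cells). In the same cells 5 smooth muscle markers summed to 49.8 to 84.35 CPM (46.1 to 101.5 CPM over all cells). Over all cells 2 or 3 of the 5 markers of each of these lists were under 1 CPM, so the sums come from part of each list. The cell type behind the Mef2c outside Myog cells was not tested.

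The other 3 genes were barely detected. Myf5 and Myf6 each had 0 UMIs in 3 libraries and 1 UMI in H3R26C 5-Aza. For 5993 H3WT cells after 5-Aza, 0 cells allows a share of up to 0.0501% with a UMI of either gene at this depth. Pax7 had 0 UMIs in both DMSO libraries and in H3WT 5-Aza, and 18 UMIs in 17 cells of H3R26C 5-Aza, which is 0.163 CPM (interval 0.0964 to 0.257). Its ratio to H3WT 5-Aza had a lower interval limit of 3.35. No cell held more than 2 Pax7 UMIs. Of these 17 cells, 11 also had a Myod1 UMI without thinning (64.7%, interval 38.3% to 85.8%), beside 7.93% of all cells of the library. Cdh15 was found in 13, Mef2c in 13 and Myog in 9, beside 4.95%, 38.05% and 13.6% of all cells without thinning. Of 12 sarcomere genes (named with the sarcomere gate further on), 10 of the 17 cells had at most 2, and 2 had 6 or more. Among all 7619 cells of the library, 1518 had none of the 12, 4086 had 1 to 2 and 357 had 6 or more. The median depth of the 17 cells, 20468 UMIs, was above the 13123 of the library, and the part of depth in these shares was not tested.

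Against the whole transcriptome, 6 of the 9 genes (Myod1, Myog, Mef2c, Mymk, Mymx and Cdh15) had a mean of at least 1 CPM over the 2 libraries compared, and each of these was at least 1.5-fold higher after 5-Aza, on the scale of log2(CPM + 1), in H3WT and in H3R26C. Over all genes with that mean, 7.99% were as much higher and 1.81% as much lower after 5-Aza in H3WT, and 13.4% and 10.3% in H3R26C. Of the 6, 5 reached the mean only through the 5-Aza library, so their count is a description. Myf5, Myf6 and Pax7 did not reach it. Of the same genes, 4 were at least 1.5-fold higher in H3R26C than in H3WT after 5-Aza (Myod1, Myog, Mymx and Cdh15) and none was as much lower, beside 10.5% of all genes higher and 8.67% lower.

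The second question was how the lines differed after 5-Aza, gene by gene. Mymx differed most, with a level in H3R26C 3.43-fold that of H3WT (interval 3.22 to 3.65), followed by Cdh15 at 2.73-fold (interval 2.43 to 3.07). Myod1 at 1.61-fold (interval 1.52 to 1.71) and Myog at 1.55-fold (interval 1.502 to 1.60) lay just past the fold of 1.5, while Mef2c at 1.29-fold and Mymk at 1.16-fold (interval 1.10 to 1.21) lay below it. Myog no longer passed with a looser cell filter (1000 UMIs and 500 genes) or with the mean of per-cell CPM, Myod1 no longer passed with a pseudocount of 5 CPM, and at a fold of 2 Mymx and Cdh15 were left. The median log2 ratio over all genes tested was -0.03.

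Shares of cells gave the same order of lines with smaller gaps for Mymx and Cdh15. A Myog UMI was found in 294 of 5993 thinned H3WT cells (4.91%, interval 4.37% to 5.48%) and in 611 of 7619 H3R26C cells (8.02%, interval 7.42% to 8.65%), a ratio of 1.64 (interval 1.42 to 1.89). Without thinning the shares were 8.31% and 13.6%. For Myod1 the thinned shares were 3.04% and 5.16% (ratio 1.70), for Mymk 4.59% and 5.79% (ratio 1.26), for Mymx 2.77% and 5.66% (ratio 2.04), for Cdh15 1.27% and 2.55% (ratio 2.01) and for Mef2c 13.7% and 18.4% (ratio 1.34). In DMSO the thinned share was 0% for Myod1, Myog, Mymk and Cdh15 in both lines, 0.0539% and 0.0423% for Mymx, and 5.47% and 10.3% for Mef2c. As a background within the 5-Aza libraries, cells with at least 3 of 8 adipocyte markers, at median depths of 16291 and 19614 UMIs, had a thinned Myog UMI in 0 of 46 H3WT and 1 of 16 H3R26C cells, and a Myod1 UMI in none, limits too wide (up to 7.71% and 30.2% for Myog) to set a background near these shares. Their summed Myog level was 2.64 and 3.47 CPM, from 2 and 1 UMIs. Mef2c was found in 5 of the 46 H3WT cells (10.9%, interval 3.63% to 23.6%) and 1 of the 16 (6.25%), and in 0 of 15 and 0 of 17 such cells with DMSO, again too few cells to set a background.

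For Myog, Myod1, Mymk and Mymx most of the RNA sat in few cells. Of the cells with any Myog UMI, 60.6% in each library had exactly 1, while the 95 H3WT and 220 H3R26C cells with 10 or more held 86.0% and 87.4% of the Myog UMIs, and the highest cell had 164 and 218. Myod1 had 66.4% and 61.8% of its UMIs in 50 and 122 cells of 10 or more. Mymk UMIs were held to 77.3% and 78.0% by 56 and 129 such cells. For Mymx, 39 H3WT cells with 10 or more UMIs held 57.7% of its UMIs and 149 H3R26C cells held 78.3%, a share that a higher level alone also raises, while the top 50 cells held 64.9% and 46.4%. For Cdh15, 6 and 23 such cells held 20.8% and 25.7%, a share that its low level alone also lowers. Its top 50 cells held 71.6% and 42.3%. Mef2c was thinly spread, with 19.3% and 14.7% of its UMIs in 32 and 51 cells of 10 or more. The top 50 cells held 23.7% and 14.5% of Mef2c. The cells with 10 or more Myog UMIs were deeper than the rest, with a median of 20586 and 23122 UMIs, and depth was not separated from level there.

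The genes were found in the same cells. Among thinned cells with Myod1, Myog was also found in 98 of 182 H3WT cells (53.9%, interval 46.3% to 61.3%) and in 245 of 393 H3R26C cells (62.3%, interval 57.3% to 67.2%), beside 4.91% and 8.02% of all cells. The number of cells with both was 10.98 and 7.77 times the product of the separate shares. Of the cells with Cdh15, 56.6% and 61.9% had Myod1, and 57.9% and 65.0% had Myog, and no other gene's cells had Myod1 as often. Mef2c was tied to the others least, with Myog in 14.7% and 16.5% of the Mef2c cells and a number of shared cells 3.001 and 2.06 times the product. Mymx was found in 77 of 275 H3WT cells with Mymk (28%, interval 22.8% to 33.7%) and in 200 of 441 such H3R26C cells (45.4%, interval 40.6% to 50.1%), whereas Mymk was found in 46.4% of cells with Mymx in both. Over all cells Mymx was found in 2.77% and 5.66%, and the number of cells with Mymk and Mymx was 10.1 and 8.02 times the product of the shares. No doublets were removed. Without the 5% of kept cells with most UMIs, 47.3% and 57.0% of Myod1 cells had Myog. The order of the lines turned where at least 2 UMIs of each gene were asked for, with 74.7% in H3WT and 71.8% in H3R26C.

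**Figure D2:**
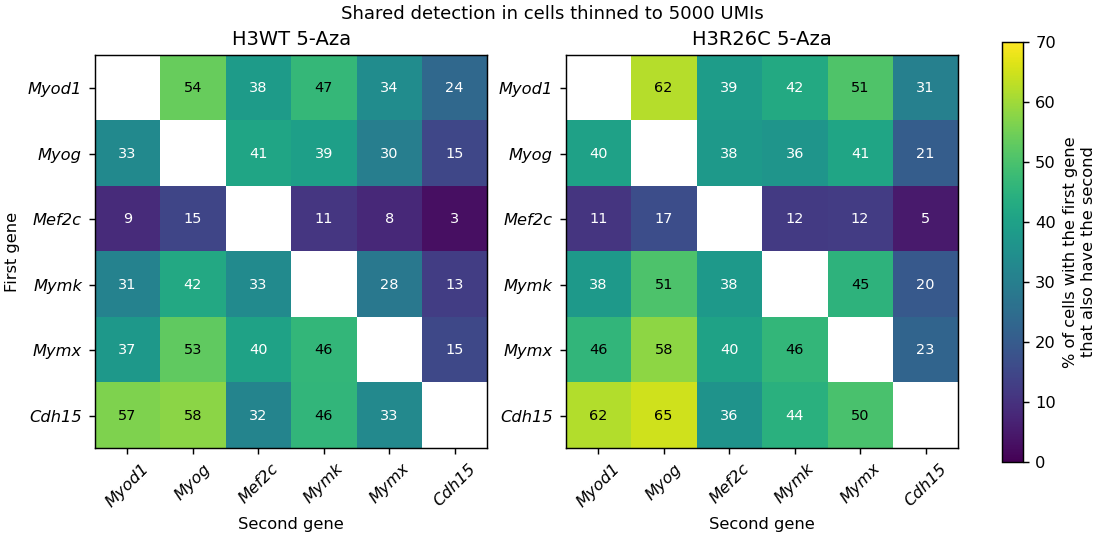
Percentage of cells with the first gene (rows) that also had the second (columns), in cells of the 2 5-Aza libraries thinned to 5000 UMIs. The Mef2c row is the lowest in both libraries (2.92% to 16.5%), and the Mymx column is higher in H3R26C for each first gene, for example 50.6% against 34.1% of Myod1 cells. Mymx was also found in more of all cells there, 5.66% against 2.77%. Relative to the product of the shares, cells with Mymx and the first gene were fewer in H3R26C for each first gene, for example 8.95 against 12.3 times for Myod1.

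Of the 5 genes that were near 0 with DMSO, few cells carried several. In H3WT 5-Aza 179 cells (2.99%) and in H3R26C 5-Aza 405 cells (5.32%) had at least 2 of Myod1, Myog, Mymk, Mymx and Cdh15 after thinning, and 15 and 57 cells had all 5. The median cell of these groups had 8 sarcomere genes in H3WT and 6 in H3R26C. Of the cells with 2 or more, 128 of 179 H3WT cells (71.5%) and 234 of 405 H3R26C cells (57.8%) were sarcomere-rich, meaning that at least 6 of 12 sarcomere and muscle-enzyme genes (Acta1, Myh3, Myh8, Tnnt3, Tnnc2, Tnni2, Mylpf, Myl1, Actn2, Ttn, Neb and Ckm) had a UMI after thinning. The gate holds none of the 9 genes and is a range, not a cell type, with 174 and 207 cells at 5 genes and 92 and 101 cells at 6. With DMSO no cell had more than 2 of the 12.

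Sarcomere-rich cells numbered 297 of 5993 in H3WT (4.96%, interval 4.42% to 5.54%) and 357 of 7619 in H3R26C (4.69%, interval 4.22% to 5.18%), a ratio of 0.945 (interval 0.808 to 1.11). Without thinning the ratio was 0.863 (interval 0.787 to 0.946), an interval below 1. Both intervals cover counting error only, so with 1 library a line the lines cannot be called equal or different in it. Held at like numbers of sarcomere genes, the 6 detected genes behaved differently from each other. Myog stood at 1.92, 8.67, 88.8, 391 and 1469 CPM in H3WT cells with 0, 1 to 2, 3 to 5, 6 to 8 and 9 to 12 sarcomere genes, and at 7.21, 18.7, 99.8, 1053 and 1374 CPM in such H3R26C cells. H3R26C was therefore higher by 3.76-fold (interval 2.64 to 5.47) in cells with no sarcomere gene and by 2.69-fold (interval 2.51 to 2.89) at 6 to 8, but lower, at 0.935 times H3WT (interval 0.890 to 0.983), at 9 to 12. Among cells with no sarcomere gene, 4 H3R26C cells and 0 H3WT cells had 10 or more Myog UMIs. The parts of these cells and of free RNA in the 3.76-fold were not tested. Cells with 1 to 2 sarcomere genes numbered 3201 of 5993 in H3WT and 4086 of 7619 in H3R26C. A thinned Ttn UMI was found in 44.35% of kept H3WT and 38.2% of kept H3R26C cells after 5-Aza, against 0.108% and 0.0423% with DMSO. For all 6 genes, the part of free RNA in the groups of 1 to 2 and 3 to 5 was not tested. Those groups are therefore not read as steps of differentiation. Over all sarcomere-rich cells Myog was 1.496-fold higher in H3R26C (interval 1.44 to 1.56), a direction that the gate of at least 9 genes turns.

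Myod1 followed Myog, at 2.73-fold (interval 2.09 to 3.60) in cells with no sarcomere gene, 2.26-fold at 6 to 8 and 0.910-fold (interval 0.825 to 1.004) at 9 to 12. For Myod1 too, the part of free RNA in cells with no sarcomere gene was not tested. Mymk was close between the lines at 3 to 5 genes (22.1 CPM in H3WT and 20.9 CPM in H3R26C), higher in H3R26C at 6 to 8 (161 and 345 CPM) and lower at 9 to 12 (1345 and 969 CPM, 0.720-fold, interval 0.682 to 0.761). Mef2c was lower at 9 to 12 as well, at 463 and 354 CPM (0.764-fold, interval 0.696 to 0.839), and higher by 1.17-fold to 1.49-fold in the other 4 bins. Mymx and Cdh15 did not cross: Mymx was 2.48-fold to 4.38-fold higher in H3R26C in each of the 5 bins, and Cdh15 2.02-fold to 3.30-fold. The bin of 9 to 12 genes holds 104 H3WT and 148 H3R26C cells, with median depths of 14198 and 19272 UMIs.

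**Figure D3:**
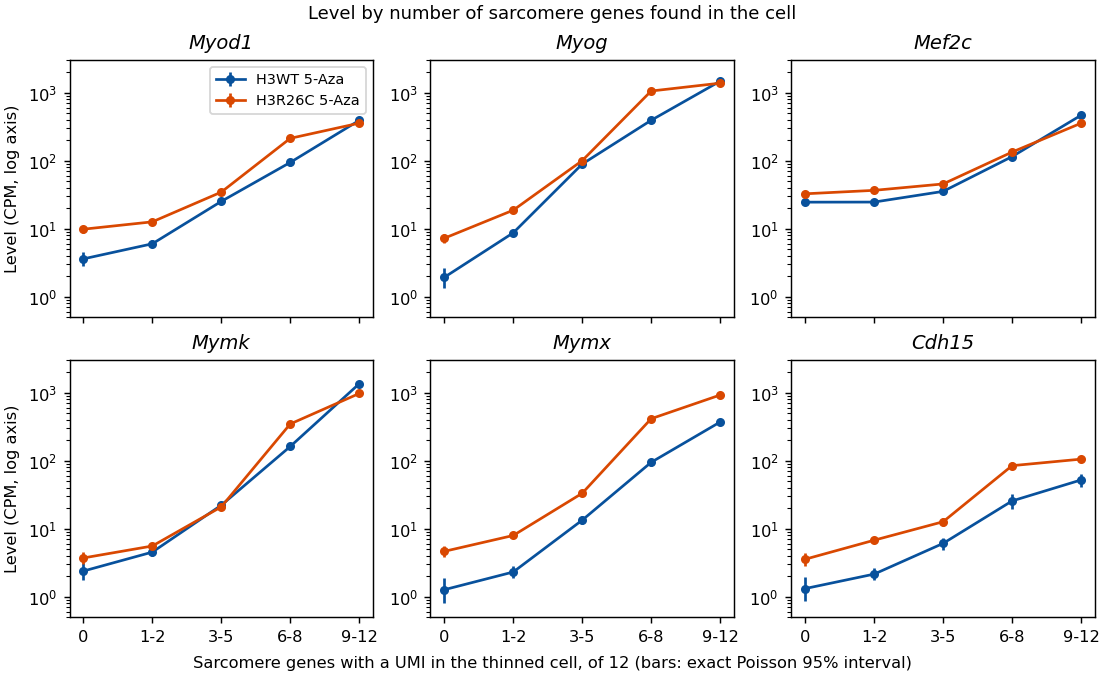
Level of the 6 detected genes (CPM, log axis, with exact Poisson 95% intervals) in cells of the 5-Aza libraries grouped by how many of 12 sarcomere genes had a UMI after thinning. The H3R26C line lies above H3WT in all 5 groups for Mymx and Cdh15, and below it in the group of 9 to 12 genes for Myod1, Myog, Mef2c and Mymk. The part of free RNA in the groups below 6 sarcomere genes was not tested.

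The fusion pair was not matched between the lines. H3WT cells had 0.368 Mymx UMIs for each Mymk UMI (interval 0.344 to 0.394), and H3R26C cells had 1.09 (interval 1.05 to 1.14), so the ratio was 2.97 times higher in H3R26C (interval 2.79 to 3.16). Capture may differ between the 2 transcripts, which leaves each ratio on its own without a scale. Transcript forms and capture in each library were not tested. With 1 library a condition, an effect of the library on this ratio cannot be told apart from the line. H3R26C was higher in each of the 5 groups by sarcomere genes and in the small barcodes, with 0.532 and 1.25 in cells with no sarcomere gene, 0.510 and 1.43 at 1 to 2 such genes, 0.603 and 1.59 at 3 to 5, 0.585 and 1.195 at 6 to 8 sarcomere genes, 0.274 and 0.949 at 9 to 12, and 0.604 and 1.45 in the barcodes under 5000 UMIs that the filter removed. A thinned Acta1 UMI was found in 13 of 46 H3WT cells (28.3%, interval 16.0% to 43.5%) of the adipocyte gate. It was found in 2 of 16 such H3R26C cells (12.5%, interval 1.55% to 38.4%), beside 35.6% and 39.6% of all kept cells. The ratios in cells with few sarcomere genes lay near those of the small barcodes. The part of free RNA in these groups was not tested, so they are not separate support for the gap. Per cell, among those with at least 10 UMIs of the pair, Mymx made up a median of 26.7% of the pair's UMIs in 83 H3WT cells (quartiles 13.5% and 53.1%) and 56.6% in 195 H3R26C cells (quartiles 38.2% and 70.8%). Mymx exceeded Mymk in 22 of the 83 cells (26.5%, interval 17.4% to 37.3%) and in 113 of the 195 (57.9%, interval 50.7% to 65.0%), and Mymx was at 0 in 8 H3WT cells and in 0 H3R26C cells.

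**Figure D4:**
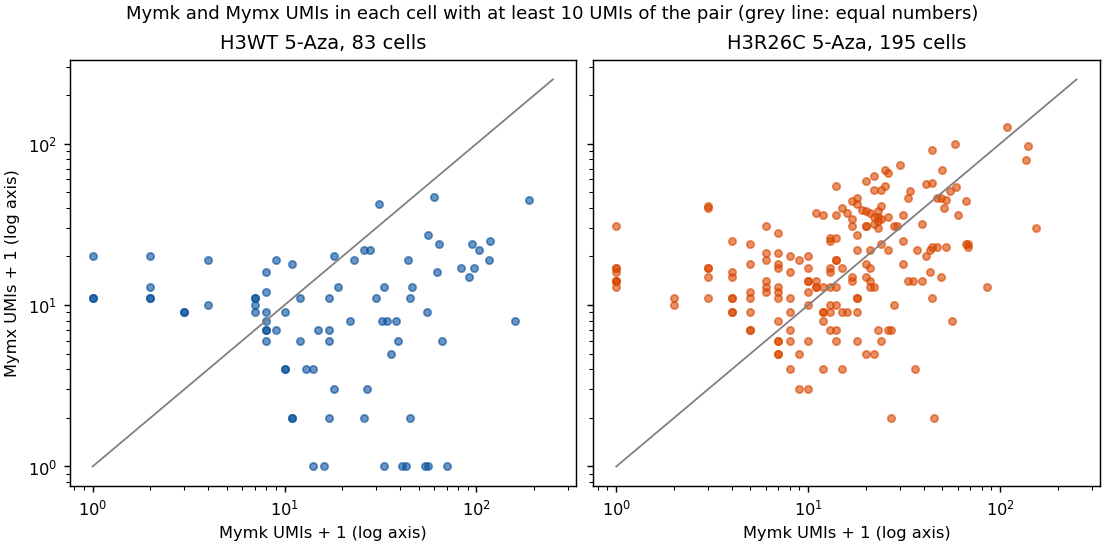
Mymk (x axis) and Mymx (y axis) UMIs of each cell with at least 10 UMIs of the pair, both plus 1 on log axes, with a grey line at equal numbers. In H3WT 5-Aza 22 of 83 cells have more Mymx than Mymk, and in H3R26C 5-Aza 113 of 195.

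Since Myod1 is known to act before Myog, cells with Myod1 alone were read apart from those with both. After thinning, 84 H3WT cells (1.40%) and 148 H3R26C cells (1.94%) had Myod1 alone, 98 (1.64%) and 245 (3.22%) had both, and 196 (3.27%) and 366 (4.80%) had Myog alone. In cells with Myod1 alone, Acta1, the skeletal actin, reached 1879 CPM in the H3WT cells and 234 CPM in the H3R26C cells, Ttn 2686 and 161 CPM, and Ckm 169 and 7.27 CPM. Cells with neither factor had 137 and 135 CPM of Acta1, 172 and 145 CPM of Ttn, and 12.6 and 6.69 CPM of Ckm, and the median cell with Myod1 alone had 2 of the 12 sarcomere genes in both lines. Of the cells with Myod1 alone 15 of 84 and 10 of 148 were sarcomere-rich, and the class still held 42 and 73 Myog UMIs (35.6 and 31.2 CPM) that thinning had dropped. Cdh15 was found there at 37.3 and 65.9 CPM, and the progenitor gene Ly6a (Sca-1) at 631 and 1148 CPM, against 59.9 and 264 CPM in cells with both factors. Spp1 (osteopontin) ran higher in H3R26C in all 4 classes, at 5397 CPM with Myod1 alone, 3197 CPM with both, 4176 CPM with Myog alone and 5021 CPM with neither, against 1322, 744, 501 and 855 CPM in H3WT.

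Cycling cells, meaning at least 3 of 10 proliferation genes such as Mki67 and Top2a after thinning, made up 6.67% of H3WT (interval 6.06% to 7.34%) and 15.7% of H3R26C 5-Aza (interval 14.9% to 16.5%). Among cells with Myod1 they made up 12.1% (22 of 182) and 19.3% (76 of 393), and among cells with Cdh15 15.8% (12 of 76) and 22.7% (44 of 194). For the other genes the shares were 7.14% and 14.1% with Myog, 6.33% and 14.5% with Mef2c, 5.09% and 11.6% with Mymk, and 7.83% and 13.9% with Mymx. The intervals left out the share of the whole library for Myod1 and Cdh15 in H3WT and for Mymk and Cdh15 in H3R26C. Sarcomere-rich cells had a share of 4.71% and 5.88%. For cells with both Myod1 and Myog the share was 8.16% in H3WT (8 of 98, interval 3.59% to 15.5%) and 17.1% in H3R26C (42 of 245, interval 12.6% to 22.5%). Cdkn1a, which encodes the cyclin-dependent kinase inhibitor p21 induced as myoblasts leave the cycle, reached 3583 CPM in the H3WT cells with both factors and 1736 CPM in the H3R26C cells, against 266 and 233 CPM in cells with neither. The cycling gate counts genes with a UMI and does not measure division.

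The genes whose levels ran most like each of the 6 across cells of the 5-Aza libraries were mostly other members of the set and genes of the contractile and calcium-release apparatus. The measure was the lower of the 2 within-library Pearson correlations of log2(1 + UMIs per 10000) over 5993 and 7619 cells, which share library and depth, among 10245 genes. For Myod1 the nearest was Myog (0.71 in H3WT and 0.75 in H3R26C), then Cacng1, Mymk, Cdh15 and Mymx. For Myog they were Myod1, Mymk, Cacng1, Mymx and Mylpf, all between 0.61 and 0.76. Cacng1, a subunit of the skeletal calcium channel, was among the 5 nearest of Myod1, Myog, Mymk and Cdh15. For Mymk the list ran on to Mybph and Jsrp1, for Mymx to Mybph, Mylpf and Tnnc2, and for Cdh15 to Stac3, which links the calcium channel to contraction. Mef2c was set apart, with Myom2, Neb, Ryr1, Myom1 and Myh3 as nearest genes at 0.35 to 0.42 and Myod1 at 0.24 and 0.20.

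Other genes of the pathway were read from 7 lists of 89 genes in all, put together by function and holding none of the 9. The E proteins, which pair with the bHLH factors, were present in every library, and none of the 3 was past a fold of 1.5 in any comparison: Tcf3 stood at 96.3 and 120 CPM and Tcf4 at 187 and 179 CPM in H3WT and H3R26C after 5-Aza. Of 16 Id and other repressors, 13 had a mean of at least 1 CPM, and after 5-Aza 4 were higher in H3R26C than H3WT, among them Heyl, which is also in the receptor list (2.66 and 5.47 CPM) and Snai1 (40.8 and 71.2 CPM), and 1 was lower, Id2 (65.9 and 40.7 CPM), which sequesters E proteins. The shares over all genes to read these counts against are 10.5% higher and 8.67% lower between the lines, 7.99% and 1.81% after 5-Aza in H3WT, and 13.4% and 10.3% after 5-Aza in H3R26C. Against DMSO, 1 of the 13 was higher and 1 lower after 5-Aza in H3WT, and 6 were higher and 4 lower in H3R26C, Heyl being higher in both. Heyl had under 1 CPM with DMSO in both lines and reached the mean only through 5-Aza, so these counts are a description. Of 12 MEF2 relatives and cofactors, 8 had that mean and 1 was past the fold between lines, Vgll3, with 48.1 CPM in the H3WT and 20.7 CPM in the H3R26C library (0.431-fold, interval 0.409 to 0.453). Lmod3, placed in this list though it nucleates sarcomeric actin, had 1 UMI and 0 UMIs with DMSO and 754 and 689 after 5-Aza. It was the 1 gene of the list that was higher after 5-Aza in either line. Lmod3 reached the mean only through 5-Aza, so that count too is a description. Against DMSO, Vgll3 was the 1 gene of the list that was lower in H3R26C (0.604-fold, interval 0.572 to 0.639), and none was lower in H3WT.

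Upstream of the MRFs, Pax3, the paralogue of Pax7 that acts in limb muscle precursors, was present in all 4 libraries, with 3.26 CPM in H3WT DMSO, 8.196 CPM in H3R26C DMSO, 9.50 CPM in H3WT 5-Aza and 22.5 CPM in H3R26C 5-Aza, which is 2.37-fold (interval 2.18 to 2.56) higher in H3R26C after 5-Aza. Its level in H3R26C cells was 18.4 CPM with Myod1 alone, 5.98 CPM with both factors, 23.35 CPM with Myog alone and 23.39 CPM with neither. Eya1 was 2.27-fold higher in H3R26C and Tbx1 0.609-fold, and of the 10 genes of this list with the mean, 2 were past the fold in each direction, beside 10.5% of all genes higher and 8.67% lower. After 5-Aza against DMSO, 2 of 9 were higher and none lower in H3WT (7.99% and 1.81% of all genes), and 1 was higher (Pax3) and 4 lower in H3R26C (13.4% and 10.3% of all genes). In H3WT Eya1, which had 0.334 CPM with DMSO, reached the mean only through 5-Aza, so the H3WT count is a description. Among 8 of 11 satellite cell and receptor genes with the mean, 4 were higher in H3R26C after 5-Aza and none lower, led by Met, the receptor for hepatocyte growth factor (12.9 and 47.8 CPM, 3.72-fold, interval 3.49 to 3.98), Spry1 (9.09 and 23.1 CPM) and the laminin receptor subunit Itga7 (9.03 and 22.8 CPM). Met stood at 66.0 CPM in H3R26C cells with both Myod1 and Myog and at 46.2 CPM in those with neither, whereas Itga7 was found at 268 CPM in those with both and 6.13 CPM in those with neither. Against DMSO, 5 of the 8 were higher after 5-Aza in H3WT and 6 in H3R26C, with none lower, beside 7.99% and 13.4% of all genes. Itga7, Heyl and Musk had under 1 CPM with DMSO in both lines and reached the mean only through 5-Aza, so the counts are a description. The Itga7 level was higher by 13.8-fold (interval 10.5 to 18.4) and 24.9-fold (interval 19.8 to 31.6).

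Of 25 adhesion and fusion partners, 22 had the mean, 3 of them higher and 2 lower in H3R26C after 5-Aza, near the 10.5% and 8.67% of all genes, with a median log2 ratio of -0.22 beside -0.03 over all genes. Kirrel3, an immunoglobulin-family adhesion protein, had 1.17 CPM in H3WT DMSO, 1.76 CPM in H3R26C DMSO, 3.20 CPM in H3WT 5-Aza and 24.4 CPM in H3R26C 5-Aza, where it was 7.62-fold (interval 6.72 to 8.67) higher in H3R26C. Jam3, a junctional adhesion protein, went the other way, at 25.4 and 11.6 CPM (0.458-fold, interval 0.427 to 0.491). Tmem182, a muscle membrane protein, had 0 UMIs in both DMSO libraries and 378 and 956 UMIs after 5-Aza, higher by lower interval limits of 105-fold and 196-fold. Of the 22, 4 were higher and none lower after 5-Aza in H3WT (7.99% and 1.81% of all genes), and 7 were higher and 4 lower in H3R26C (13.4% and 10.3% of all genes). Tmem182 reached the mean only through 5-Aza in both lines, so these counts are a description. Among the cell cycle exit genes none of the 5 with the mean was past the fold between lines, and Cdkn1a stood at 359 and 318 CPM after 5-Aza, 1.64-fold and 1.91-fold the 219 and 166 CPM with DMSO. Between the lines after 5-Aza the median log2 ratio was 0.20 for the E proteins, 0.29 for the repressors, -0.02 for the MEF2 list and for the upstream factor list, 0.68 for the satellite cell and receptor genes and -0.18 for cell cycle exit.

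**Figure D5:**
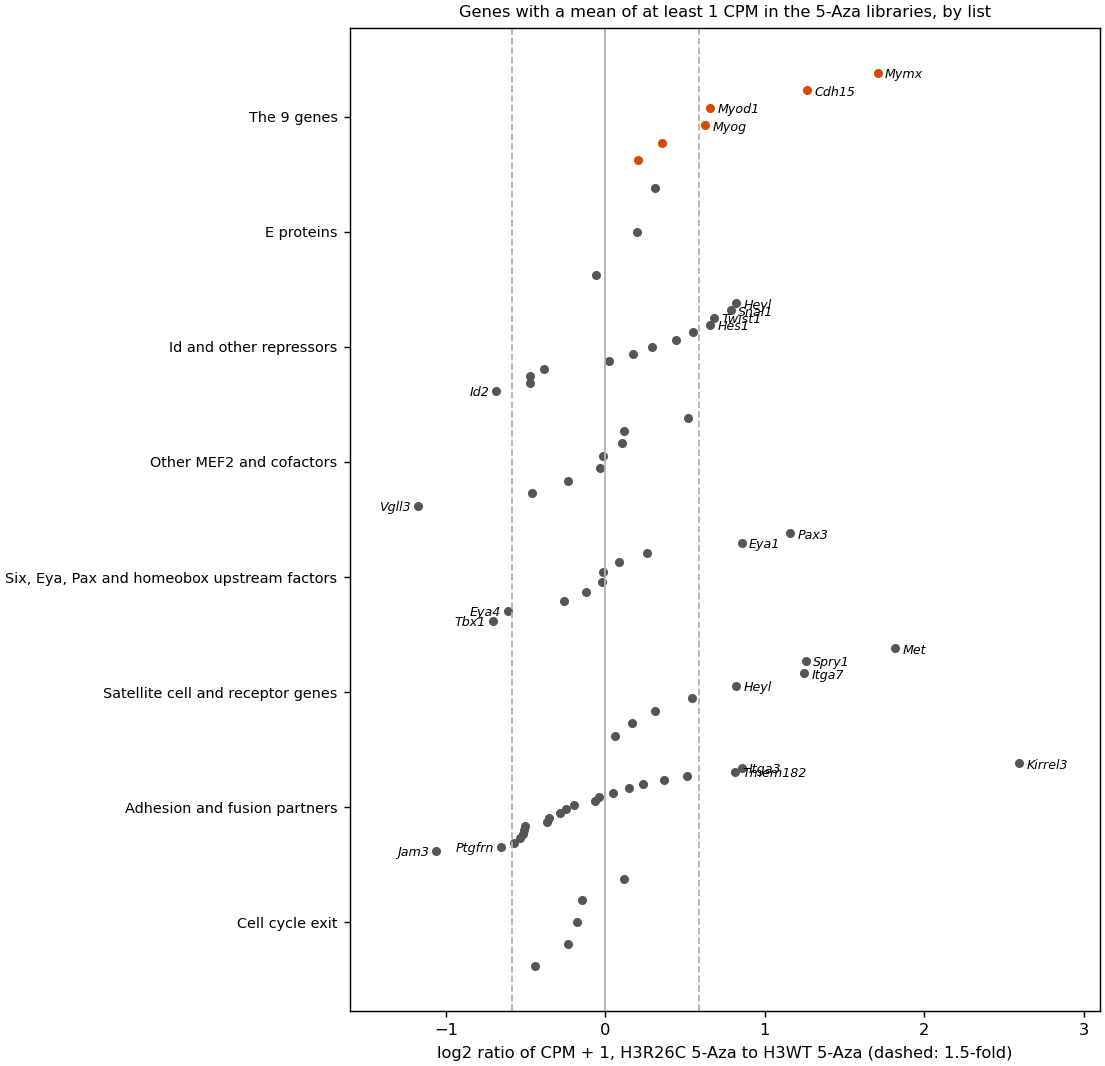
Log2 ratio of CPM + 1 in H3R26C to H3WT after 5-Aza (x axis) for each gene with a mean of at least 1 CPM, by list, with the genes past the dashed lines at 1.5-fold named. Kirrel3, Met and Mymx lie farthest to the right and Vgll3 and Jam3 farthest to the left.

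The cells that carried these genes were checked against markers of other cell types. In cells with a thinned Myog UMI the 5 smooth muscle markers, Des among them, which skeletal muscle also expresses, summed to 437 CPM for H3WT and 407 CPM for H3R26C, against 80.3 and 102 CPM over all cells. The 5 cardiac markers summed to 12.3 and 7.98 CPM in these cells, above the 6.66 and 4.95 CPM over all cells. Tbx5 and Nppa were at 0 over all cells of both 5-Aza libraries. The 8 adipocyte markers summed to 52.9 and 39.0 CPM, below the 169 and 54.4 CPM over all cells. The 5 mesenchymal progenitor markers summed to 2583 and 6161 CPM in Myog cells and to 4827 and 9805 CPM over all cells. Spp1 alone made up 847 and 4905 CPM of the sums over all cells, with Col1a1 at 2697 and 3102 CPM and Ly6a at 1034 and 1582 CPM, so the gap between the lines was mostly that of Spp1. Its part in the differences of the muscle genes was not tested.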

How the data were processed

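Droplet RNA was counted in 4 libraries of C3H10T1/2 cells, 1 for each of H3WT and H3R26C with DMSO or 5-Aza. The authors made the deposited UMI counts with Cell Ranger (6.1.0 in the file headers, mm10 reference), as whole-number counts per gene and barcode without normalization. The deposited barcode and feature files hold other values, namely barcodes and gene names as text. The submitters' processing notes also name Seurat 4, of which no output was used here. The study's cell filter was applied again to the counts (5000 UMIs, 1500 genes, 20% mitochondrial UMIs).

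Levels were summed over the kept cells, scaled to CPM, and compared as log2 ratios with a pseudocount of 1 CPM, a fold of 1.5 and a minimum mean of 1 CPM. No test was made between conditions, since each has 1 library, and intervals at 95% cover counting error only. Doublets were neither called nor removed. Each pair of libraries shared 24 to 58 kept barcodes. The genes and lists were chosen with earlier results of these data known. Named were all 9 genes, for each of the 6 with at least 100 UMIs in both 5-Aza libraries the 5 most alike genes of at least 5 CPM, and from each list and comparison at most 3 genes past the fold with at least 50 UMIs, or the 2 with most UMIs where none passed. Acta1, Ttn, Ckm, Ly6a and Spp1 were read as markers of differentiated and progenitor cells. Alternatives changed the cell filter, scaling, pseudocount, fold, thinning and sarcomere gate. The work used Python 3.11.15, matplotlib 3.10.9, pandas 2.3.3, scipy 1.17.1 and numpy 2.4.6, and scripts were tested on simulated data.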

Additional observations from a re-analysis of the deposited data

Results flagged for a closer look

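The barcodes with 500 to 5000 UMIs, which the cell filter removes, held the muscle genes after 5-Aza at levels above those of the same barcodes with DMSO. There were 8982 such barcodes in H3WT 5-Aza and 4462 in H3R26C 5-Aza. Myog stood at 209 CPM in H3WT 5-Aza and 258 CPM in H3R26C 5-Aza, beside 0.356 and 0 CPM with DMSO, and Myod1 at 52.0 and 74.1 CPM beside 0 in both. Mymk was at 162.5 and 127 CPM, Mymx at 98.2 and 184 CPM, Mef2c at 242 and 259 CPM, and Cdh15 at 8.385 and 11.02 CPM, in the same order, while with DMSO Mymk was at 1.78 and 0 CPM, Mef2c at 9.62 and 14.8 CPM, and Mymx and Cdh15 at 0. Acta1 was at 4700 and 4614 CPM there. In the kept cells of the same libraries Myog was at 62.7 and 97.4 CPM, Mymk at 38.5 and 44.4 CPM and Acta1 at 533 and 672 CPM. Of the 6 detected genes, only Cdh15 in H3R26C was not higher in the small barcodes (11.97 CPM in the kept cells). Mymk was thus higher in H3WT in the small barcodes and higher in H3R26C in the kept cells. The median mitochondrial share of the small barcodes was 4.102% and 2.13%, against 0.181% and 0.177% with DMSO. The part of these barcodes in the differences between the lines was not tested beyond the Mymx to Mymk ratio and the looser filter. That filter admits those of at least 1000 UMIs to the levels and to the shares thinned to 1000 UMIs. Shares and gates thinned to 5000 UMIs leave them out under either filter.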

How the results depend on the processing

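No paired analysis was possible because no condition was sampled by more than 1 library. The counts of genes past the fold were 6 after 5-Aza in either line under every alternative run. Since 5 of the 6 reached the minimum mean only through the 5-Aza library, that constancy is a description. The count between lines was 3 or 4, and 2 at a fold of 2. The ratio of Myog levels in sarcomere-rich cells was 0.935 with the gate of at least 9 genes, the 1 reversal, and 1.34 with the looser filter, 1.86 without the 5% of kept cells with most UMIs and 1.62 without thinning. The ratio of shares of sarcomere-rich cells was 1.12 at that gate (interval 0.865 to 1.45), 0.863 without thinning (interval 0.787 to 0.946) and 0.877 without the 5% of kept cells with most UMIs. With at least 2 UMIs, 74.7% of H3WT and 71.8% of H3R26C Myod1 cells had Myog, so the order of the lines turns. Without the 5% of kept cells with most UMIs the H3R26C share was 57.0%. With the looser filter and cells thinned to 1000 UMIs, added after the data were seen, that share was 50.2%, below the 53.6% of H3WT, and the ratio of shares with Myog 1.16. The ratio of Mymx per Mymk UMI, also added then, was 2.68 with the looser and 3.29 with the stricter filter, and 2.46 without the deepest cells. Over 6 alternatives, level ratios ran from 1.06 to 1.23 for Mymk, 1.18 to 1.36 for Mef2c, 1.40 to 1.76 for Myog, 1.55 to 2.12 for Myod1, 2.64 to 3.34 for Cdh15 and 2.68 to 3.86 for Mymx. The other 58 values of the main results stayed within the interval or 1.5 times of the value reported. The causes were not tested. With 1 library a condition, no spread between cultures is known, and under 20 UMIs (Pax7) or at 1 UMI (Myf5, Myf6) depth limits what can be read.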
